A study of Mus musculus with 3 samples.

Results

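The 10 genes described here, S100a8, S100a9, Ngp, Camp, Ltf, Lcn2, Retnlg, Slpi, Mmp8 and Mmp9, encode alarmins, granule proteins and related secreted proteins of neutrophils. They were taken by gene symbol out of 48568 symbols in the deposited expression tables, after earlier results of these data were known. They were chosen by their low FPKM in females and SryHi males relative to wildtype males, so these levels are a description without a test. RNA was sequenced from whole popliteal lymphnodes, stroma and parenchyma together, of untreated C57Bl/6 mice at 5 months of age. The groups were wildtype females (6 mice), SryHi males (3 mice) and wildtype males (6 mice), each pooled into 1 library, so that every gene has 1 value per group and no difference has a replicate check. SryHi males are XY-Sry+ males of the FCG model, in which Sry is deleted from the Y chromosome and put back as an autosomal transgene that is overexpressed. The tables give FPKM, fragment numbers divided by transcript length and library size, and set wildtype females and SryHi males each beside the same wildtype male library.

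Neutrophils are short-lived phagocytes of the blood and of inflamed tissue, and a resting lymphnode holds few of them. Their granules are made in sequence during maturation in the bone marrow: primary granules with myeloperoxidase and serine proteases, then secondary granules with lactoferrin and cathelicidin, then tertiary granules with gelatinase. S100a8 and S100a9 instead fill the cytosol and act as alarmins, proteins that signal through pattern recognition receptors once they are released from cells. Monocytes, macrophages and epithelia can also express S100a8, S100a9, Lcn2, Slpi and Mmp9.

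At the deposited scale, all 10 genes were lower in the wildtype female library and in the SryHi male library than in the wildtype male library. Their summed level was 78.7 FPKM in females and 99.9 FPKM in SryHi males, against 536 FPKM in wildtype males, that is 14.7% of the wildtype male sum in females and 18.6% in SryHi males. Ratios below are log2 ratios of FPKM + 1, and a gene is called lower or higher at a 2-fold difference if its mean in the pair is at least 1 FPKM. All 10 genes passed that filter in both comparisons, Mmp8 in females only through its value in wildtype males. In females 9 of the 10 were at least 2-fold lower than in wildtype males, where 2.77% of 15523 symbols were lower and 2.83% higher. In SryHi males 8 of the 10 were at least 2-fold lower, where 4.14% of 15566 symbols were lower and 3.7% higher. Among protein-coding genes alone, a background chosen after the data were seen, 1.57% were lower and 0.801% higher in females, and 1.97% lower and 1.96% higher in SryHi males. Because the genes were chosen for these values, nothing is read from the counts. The median ratio of the 10 genes was -2.51 in females, with a range of -2.99 to -0.72, and -1.90 in SryHi males, with a range of -3.98 to -0.09. Over all symbols the median was 0.01 in females and 0.038 in SryHi males.

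**Figure D1:**
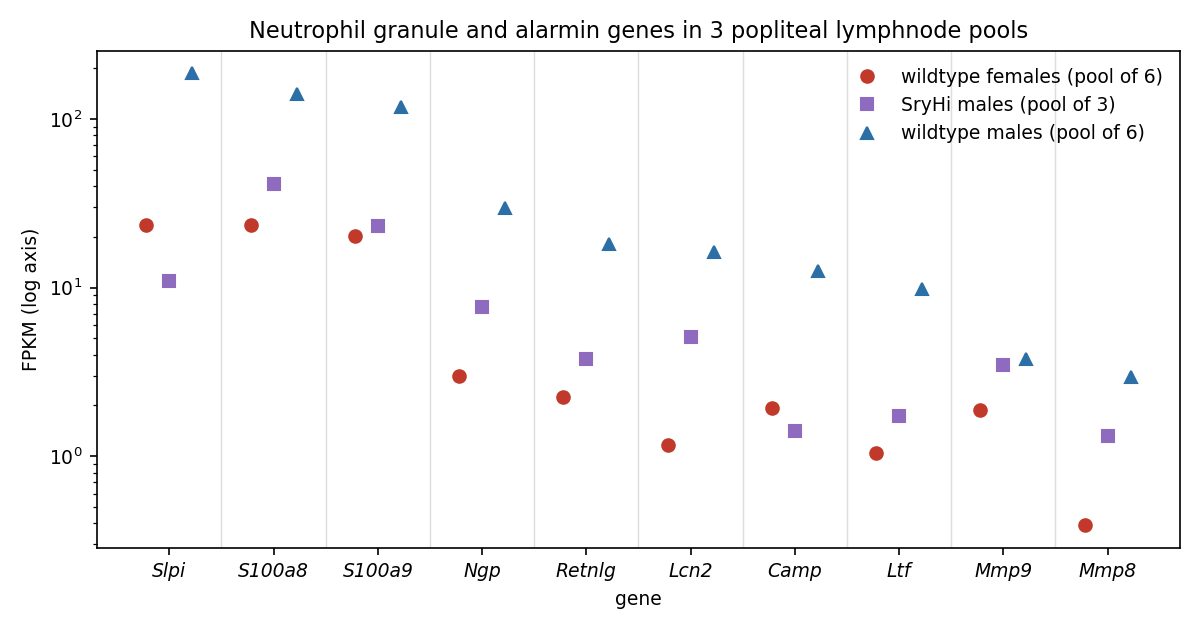
FPKM (log axis) of the 10 genes in the 3 pooled libraries, with 1 point per library and no error bars since each group is 1 pool. The wildtype male point is the highest for every gene, from 186 FPKM for Slpi to 2.94 FPKM for Mmp8, and lies close to the SryHi male point only for Mmp9; rescaled to equal library sums (TPM), Lcn2, Mmp8 and Mmp9 were higher in SryHi males.

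The scale matters for SryHi males. Ighj1 and Ighj4, short immunoglobulin joining segments, made up 72.6% of the FPKM sum in females and 35.4% in SryHi males, against 75.8% in wildtype males. When each library was rescaled to the same FPKM sum (TPM), the median ratio over all genes was -0.16 in females and 1.28 in SryHi males. On that scale 69.0% of symbols were at least 2-fold higher in SryHi males and 0.944% lower, against 3.7% and 4.14% as deposited. Of the 10 genes, 8 in females and 1 in SryHi males were then at least 2-fold lower, and in SryHi males Lcn2 at 0.01, Mmp8 at 0.23 and Mmp9 at 0.93 turned above 0. All 10 genes stayed below the median of all genes on the TPM scale in both comparisons, with a difference in medians of -1.76 in females and -1.63 in SryHi males on the log2 scale. TPM values are smaller than FPKM here, so that adding 1 also dampens low genes more. With each library rescaled to the wildtype male FPKM sum instead, a setting added after the data were seen, 9 of the 10 genes in females and 2 in SryHi males, Camp and Slpi, were at least 2-fold lower, with medians of -2.73 in females and -0.42 in SryHi males beside -0.22 in females and 1.58 in SryHi males over all genes. Lcn2 at 0.01, Mmp8 at 0.40 and Mmp9 at 1.34 were again above 0 in SryHi males. Values below are at the deposited scale unless TPM is named.

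Depth is not stated in the tables. The smallest steps of FPKM put it at about 6.0e+06 fragments in females, 5.3e+06 in SryHi males and 6.0e+06 in wildtype males, and the fragment numbers given for single genes are approximate for that reason. Sry was listed at 0 in females and had 20.8 FPKM in SryHi males, against 0 in wildtype males. Ddx3y, a gene of the Y chromosome, was listed at 0 in females and had 44.6 FPKM in SryHi males, against 34.2 FPKM in wildtype males. Of 13 mitochondrial protein genes, 6 were at least 2-fold lower in females and 6 in SryHi males than in wildtype males, and their part in the results was not tested. In whole tissue, fewer cells of a type and less RNA per cell cannot be told apart.

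The start regions of 6 of the genes are shown because these genes, which stand for the alarmins, the secondary granule proteins and the protease inhibitor, were all at least 2-fold lower in females and in SryHi males than in wildtype males at the deposited scale, though of the 6 only Slpi was on the TPM scale in SryHi males. RefSeq sequences on GRCm38.p6 were matched for 9 of the 10 genes, Mmp9 being the exception, and each runs 5′ to 3′ over 300 bases up to and across the annotated start. Capitals mark matches to TTNNGNAA on either strand, a pattern for C/EBP factors, which act in granulocyte maturation. The windows are chr3:90668821-90669120 on the + strand for S100a8, chr3:90695672-90695971 on the - strand for S100a9, chr9:110419558-110419857 on the + strand for Ngp, chr9:111019042-111019341 on the + strand for Ltf, chr9:109849407-109849706 on the - strand for Camp and chr2:164356458-164356757 on the - strand for Slpi.
S100a8: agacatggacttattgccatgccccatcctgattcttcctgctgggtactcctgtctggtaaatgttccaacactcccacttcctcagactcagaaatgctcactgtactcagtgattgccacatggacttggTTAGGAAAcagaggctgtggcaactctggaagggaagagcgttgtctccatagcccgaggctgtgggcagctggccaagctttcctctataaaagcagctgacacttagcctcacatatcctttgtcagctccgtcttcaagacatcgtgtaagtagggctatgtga
S100a9: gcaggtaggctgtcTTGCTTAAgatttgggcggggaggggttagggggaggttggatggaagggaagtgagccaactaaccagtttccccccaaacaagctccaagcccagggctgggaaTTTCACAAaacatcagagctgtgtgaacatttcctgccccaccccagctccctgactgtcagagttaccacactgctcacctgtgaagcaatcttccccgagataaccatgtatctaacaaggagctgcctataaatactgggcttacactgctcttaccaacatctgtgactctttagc
Ngp: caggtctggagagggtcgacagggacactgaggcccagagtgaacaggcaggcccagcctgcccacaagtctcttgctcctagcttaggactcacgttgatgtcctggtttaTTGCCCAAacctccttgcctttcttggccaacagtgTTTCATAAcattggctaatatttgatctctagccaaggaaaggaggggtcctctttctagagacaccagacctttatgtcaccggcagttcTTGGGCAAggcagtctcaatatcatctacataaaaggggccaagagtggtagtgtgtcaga
Ltf: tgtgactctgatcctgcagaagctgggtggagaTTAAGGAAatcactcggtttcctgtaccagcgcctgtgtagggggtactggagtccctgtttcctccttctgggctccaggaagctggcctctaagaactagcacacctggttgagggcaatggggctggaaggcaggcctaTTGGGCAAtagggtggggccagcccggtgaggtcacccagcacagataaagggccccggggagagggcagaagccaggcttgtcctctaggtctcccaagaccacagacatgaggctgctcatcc
Camp: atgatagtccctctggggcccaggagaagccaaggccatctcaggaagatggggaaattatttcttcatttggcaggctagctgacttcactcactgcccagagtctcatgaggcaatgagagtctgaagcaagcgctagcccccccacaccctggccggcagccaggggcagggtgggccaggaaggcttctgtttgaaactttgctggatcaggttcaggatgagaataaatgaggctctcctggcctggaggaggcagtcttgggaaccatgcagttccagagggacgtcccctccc
Slpi: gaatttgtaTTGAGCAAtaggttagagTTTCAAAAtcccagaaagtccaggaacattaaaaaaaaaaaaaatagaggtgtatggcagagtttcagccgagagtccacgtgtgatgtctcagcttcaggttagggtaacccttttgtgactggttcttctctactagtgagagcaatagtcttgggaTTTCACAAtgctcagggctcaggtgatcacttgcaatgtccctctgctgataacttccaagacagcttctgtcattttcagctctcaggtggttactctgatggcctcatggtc
The C/EBP pattern was found in 8 of the 9 windows, all but that of Camp, and in 40.7% of 32851 RefSeq windows of the same length. S100a8 held 1 match, S100a9 and Ltf held 2 each, and Ngp and Slpi held 3 each. GGAAGT, a pattern for PU.1, was found on either strand in the windows of S100a8, S100a9, Slpi and Mmp8, 4 of 9, against 23.8% of all windows. GGGA followed after any 4 bases by CC, a pattern for NF-kB, was found on either strand in the window of Camp alone, 1 of 9, against 20.7% of all windows. The match TTTCACAA stands in both the S100a9 and the Slpi window, at -130 and -64 counted from the RefSeq start as 0. TTGGGCAA stands in both the Ngp and the Ltf window, at -11 and -75 counted likewise. For S100a8, Ngp, Ltf, Camp and Slpi the RefSeq start lies inside the gene span printed below, which comes from the deposited positions. The match at -11 in Ngp therefore also lies inside that span. Matches to short patterns are a description of letters and do not show binding.

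S100a8 and S100a9 encode the calcium-binding subunits of calprotectin and are among the most abundant transcripts of mature neutrophils. S100a8 (chr3:90668978-90670035 on the + strand, 3 exons) had 23.4 FPKM in females and 41.2 FPKM in SryHi males, against 141 FPKM in wildtype males. About 68 fragments lay behind the value in females and 106 in SryHi males, against 407 in wildtype males. Its log2 ratio to wildtype males was -2.54 in females and -1.75 in SryHi males, and wildtype males held 6.0 times the female level and 3.41 times the SryHi level.

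S100a9 (chr3:90692632-90695721 on the - strand, 3 exons) had 20.2 FPKM in females and 23.3 FPKM in SryHi males, against 117 FPKM in wildtype males. About 62 fragments in females and 64 in SryHi males, against 361 in wildtype males, gave log2 ratios of -2.48 in females and -2.28 in SryHi males. The proteins form a heterodimer, and their transcripts stood close together in every library: S100a8 had 1.16 times the FPKM of S100a9 in females and 1.77 times in SryHi males, against 1.2 times in wildtype males. The pair made up 43.6 FPKM in females and 64.5 FPKM in SryHi males, against 257 FPKM in wildtype males. By FPKM among protein-coding genes, S100a8 ranked 3381 in females and 1814 in SryHi males, against 279 in wildtype males.

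Ngp, Camp, Ltf and Lcn2 encode proteins of secondary granules. Their summed level was 7.16 FPKM in females and 16 FPKM in SryHi males, against 68.4 FPKM in wildtype males, that is 10.5% of the wildtype male sum in females and 23.3% in SryHi males. Ngp, neutrophilic granule protein, a cystatin-like protein of mouse neutrophils (chr9:110419747-110423012 on the + strand, 4 exons), had 3.01 FPKM in females and 7.69 FPKM in SryHi males, against 29.8 FPKM in wildtype males. Wildtype males thus held 9.91 times the female and 3.88 times the SryHi level of Ngp, with log2 ratios of -2.94 in females and -1.83 in SryHi males.

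Ltf, lactoferrin, binds iron and withholds it from microbes (chr9:111019271-111042767 on the + strand, 17 exons). It had 1.05 FPKM in females and 1.73 FPKM in SryHi males, against 9.78 FPKM in wildtype males. The log2 ratios were -2.39 in females and -1.98 in SryHi males. About 17 fragments in females and 25 in SryHi males lay behind these values, against 160 in wildtype males, over a transcript of 2743 nt.

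Camp, the cathelicidin precursor of an antimicrobial peptide (chr9:109847379-109849617 on the - strand, 4 exons), had 1.94 FPKM in females and 1.42 FPKM in SryHi males, against 12.6 FPKM in wildtype males. At the deposited scale, but not on the TPM scale, Camp was 1 of 2 genes of the set, with Slpi, lower in SryHi males than in females. Only about 9 fragments in females and 6 in SryHi males stood behind Camp, against 57 in wildtype males. Its log2 ratios were -2.21 in females and -2.49 in SryHi males.

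Lcn2, lipocalin 2, binds bacterial siderophores and is also made by macrophages and epithelia (chr2:32384633-32388252 on the - strand, 6 exons). Lcn2 had 1.16 FPKM in females and 5.12 FPKM in SryHi males, against 16.2 FPKM in wildtype males. Its female ratio of -2.99 was the lowest of the set and rests on about 6 fragments in females. The SryHi ratio was -1.49 as deposited and 0.01 on the TPM scale, where the median of all genes was 1.28.

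Retnlg encodes resistin-like gamma, a secreted protein expressed in mouse bone marrow and neutrophils (chr16:48872608-48874498 on the + strand, 4 exons). Retnlg had 2.24 FPKM in females and 3.79 FPKM in SryHi males, against 18.2 FPKM in wildtype males. About 8 fragments in females and 12 in SryHi males lay behind these values, against 64 in wildtype males. The Retnlg ratios of -2.56 in females and -2.0 in SryHi males lay nearest of the 10 to the medians of the set. The relatives Retn and Retnla lay on the other side: Retn had 3.05 FPKM in females and 3.80 FPKM in SryHi males, against 0.644 FPKM in wildtype males, and Retnla had 6.22 FPKM in females and 1.02 FPKM in SryHi males, against 0.396 FPKM in wildtype males. Both passed the filter in females, and Retn in SryHi males, only through the library that was not wildtype male, and Retnlb was listed at 0 in all 3 libraries.

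Slpi encodes secretory leukocyte protease inhibitor, which blocks neutrophil elastase and cathepsin G and is made by neutrophils, macrophages and epithelia. Slpi had 23.5 FPKM in females and 10.9 FPKM in SryHi males, against 186 FPKM in wildtype males. About 122 fragments lay behind the value in females and 51 in SryHi males, against 970 in wildtype males. Wildtype males held 7.92 times the female and 17.1 times the SryHi level. By FPKM among protein-coding genes it ranked 3367 in females and 6485 in SryHi males, against 201 in wildtype males, where it was the most abundant of the 10 genes. The SryHi ratio of -3.98 was the lowest of the set and the 7th lowest of all protein-coding genes that passed the filter, and it stayed at -2.29 on the TPM scale. The female ratio was -2.93. Slpi had 1.0 times the FPKM of S100a8 in females and 0.264 times in SryHi males, against 1.32 times in wildtype males. The table gives Slpi a span of chr2:164354070-164389095 on the - strand, longer than its main transcript, because an annotated transcript starts far upstream.

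Mmp8, neutrophil collagenase of secondary granules (chr9:7558429-7568486 on the + strand, 10 exons), had 0.39 FPKM in females and 1.31 FPKM in SryHi males, against 2.94 FPKM in wildtype males. About 6 fragments in females and 17 in SryHi males, against 42 in wildtype males, lay behind these values, and the ratios were -1.5 in females and -0.77 in SryHi males. Mmp9, the gelatinase of tertiary granules and also a product of macrophages (chr2:164940780-164955850 on the + strand, 13 exons), had 1.89 FPKM in females and 3.49 FPKM in SryHi males, against 3.77 FPKM in wildtype males. Wildtype males held 2.0 times the female level and 1.08 times the SryHi level of Mmp9, whose ratios of -0.72 in females and -0.09 in SryHi males did not reach the 2-fold limit. Mmp9 alone of the 10 was under that limit in females, and Mmp8 and Mmp9 were the 2 under it in SryHi males. For Mmp8 this depends on the 1 FPKM added: by FPKM alone wildtype males held 2.23 times its SryHi level.

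**Figure D2:**
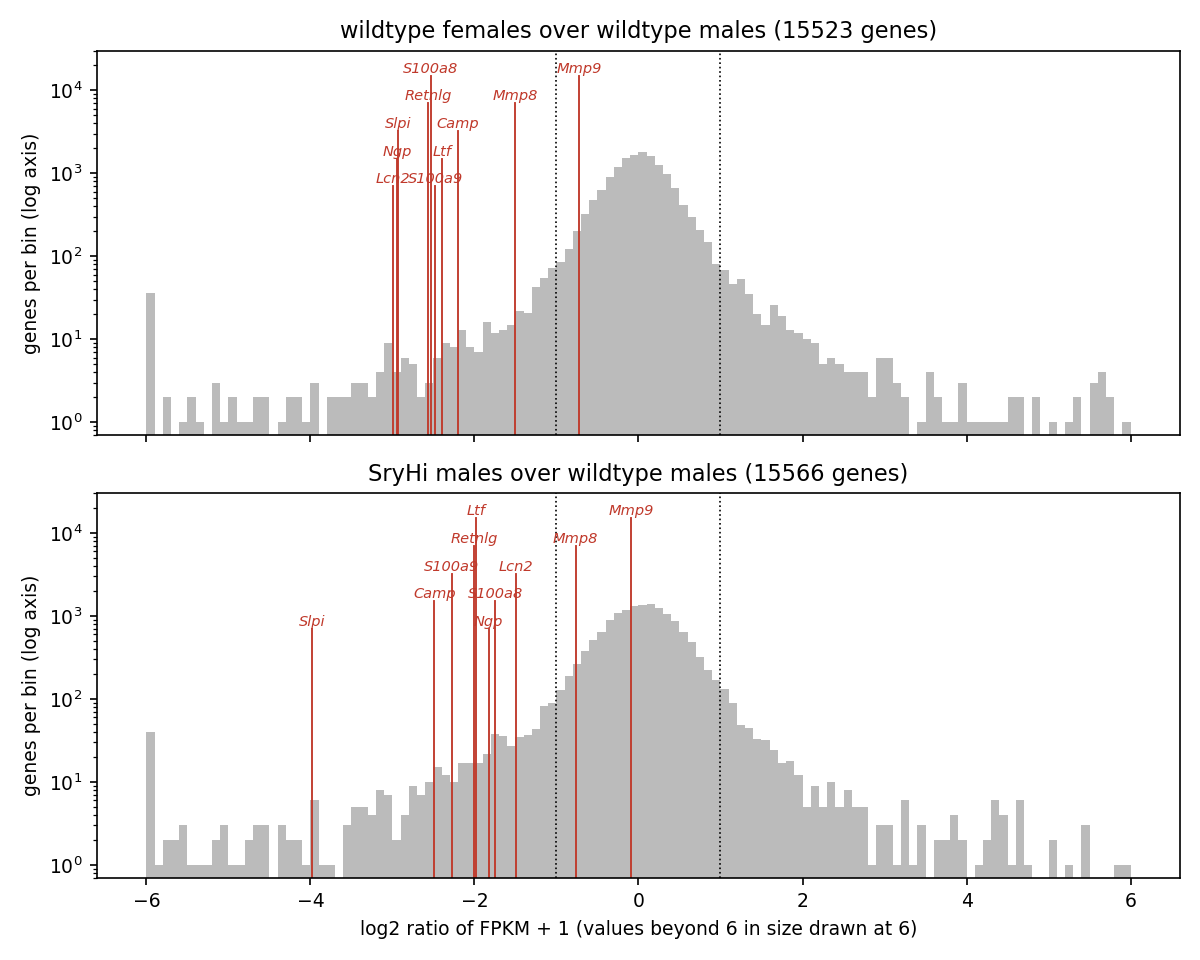
Histograms of the log2 ratio of FPKM + 1 over all symbols that passed the filter (log axis of genes per bin), for wildtype females over wildtype males (15523) and SryHi males over wildtype males (15566), with the 10 genes as red lines and dotted lines at 2-fold. In females 9 lines lie left of the lower 2-fold line, from -2.99 for Lcn2 to -1.5 for Mmp8, and in SryHi males 8 lines do, with Slpi apart at -3.98; rescaled to TPM, 1 of the 10 is past the limit in SryHi males and Lcn2, Mmp8 and Mmp9 lie above 0.

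Levels of the 10 genes are set side by side here because FPKM is per length. Their transcripts run from 486 nt for S100a8 to 3175 nt for Mmp9, and how well FPKM corrects for length was not tested. In wildtype males the order was Slpi, S100a8, S100a9, Ngp, Retnlg, Lcn2, Camp, Ltf, Mmp9 and Mmp8. Females kept Slpi, S100a8 and S100a9 as the highest 3 and Mmp8 as the lowest, with Slpi at 23.5 and S100a8 at 23.4 FPKM. SryHi males had S100a8 first, then S100a9, with Slpi next and Camp and Mmp8 last at 1.42 and 1.31 FPKM. With 1 pool per group no spread is known, so neighbours in these orders cannot be told apart. Ratios between granule genes were alike in part: Ngp had 2.86 times the FPKM of Ltf in females and 4.45 times in SryHi males, against 3.05 times in wildtype males. Ngp had 1.55 times the FPKM of Camp in females and 5.42 times in SryHi males, against 2.37 times in wildtype males, with few fragments of Camp outside wildtype males.

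Because both comparisons share the wildtype male library, females were also set directly over SryHi males, a comparison added after the data were seen and made across the 2 tables. In it 9 of the 10 genes passed the filter, all but Mmp8. Their median log2 ratio was -0.56, beside -0.037 over all 15590 symbols that passed. Lcn2 at -1.5 and Ngp at -1.12 were at least 2-fold lower in females, Slpi at 1.04 was at least 2-fold higher, beside 4.05% of all symbols lower and 5.05% higher, or 2.79% and 2.19% of protein-coding genes. S100a9 at -0.20, Camp at 0.28 and Ltf at -0.41 lay within 2-fold. Without the wildtype male library, then, 2 of the 10 genes were lower in females at the deposited scale, against 9 when wildtype males were the baseline. On the TPM scale Slpi and Camp were lower in females than in SryHi males. Their TPM ratios to wildtype males were -3.0 in females and -2.29 in SryHi males for Slpi, and -1.51 and -0.94 for Camp. Over all genes the TPM medians were -0.16 in females and 1.28 in SryHi males. The counts of females over SryHi males were not repeated on the TPM scale.

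Primary granule genes are switched on earliest in maturation, and those for myeloperoxidase and the serine proteases had low levels. Of 9 genes on that list, which also counts Cd63 and Igsf6, 6 passed the filter. Of these, 4 in females and 1, Elane, in SryHi males passed only through the wildtype male value. Mpo, myeloperoxidase, had 0.659 FPKM in females and 1.03 FPKM in SryHi males, against 4.61 FPKM in wildtype males. Prtn3, proteinase 3, had 0.571 FPKM in females and 1.13 FPKM in SryHi males, against 5.84 FPKM in wildtype males. Elane, neutrophil elastase, had 0.549 FPKM in females and was listed at 0 in SryHi males, against 3.38 FPKM in wildtype males. For Mpo and Prtn3 the female library was the lowest and the wildtype male library the highest. Cd63, a granule membrane tetraspanin that many other cells express, had 57 FPKM in females and 76.0 FPKM in SryHi males, against 79.8 FPKM in wildtype males. Igsf6, an immunoglobulin superfamily gene of myeloid cells, had 6.71 FPKM in females and 18.0 FPKM in SryHi males, against 8.33 FPKM in wildtype males. In females 4 of the 6 were at least 2-fold lower and none higher, with a median of -1.38. These are the same 4, Mpo, Elane, Prtn3 and Ctsg, that passed only through the wildtype male value. The filter thus fixed their direction, and nothing is read from this count or median. In SryHi males 3 were lower, Elane among them, and 1, Igsf6, higher, with a median of -0.96. On the TPM scale these medians were -0.70 in females and 0.08 in SryHi males, or -0.54 in females and -1.21 in SryHi males relative to all genes.

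Other genes of secondary and tertiary granules were mostly within 2-fold. Of 20 such genes 18 passed in females, with 2 at least 2-fold lower, none higher and a median of -0.30, and 16 passed in SryHi males, with 2 lower, none higher and a median of -0.07; on the TPM scale the medians were -0.27 in females and 0.10 in SryHi males relative to all genes. The 2 genes, Chil3 and Hp, were the same in both comparisons, and Hp passed in SryHi males only through its value in wildtype males. Chil3, a chitinase-like lectin of neutrophils and macrophages, had 2.52 FPKM in females and 2.47 FPKM in SryHi males, against 6.35 FPKM in wildtype males. Hp, haptoglobin, had 1.52 FPKM in females and 0.641 FPKM in SryHi males, against 4.16 FPKM in wildtype males. Lyz2, lysozyme of neutrophils and macrophages alike, was the most abundant at 586 FPKM in females and 522 FPKM in SryHi males, against 648 FPKM in wildtype males. Cybb, the NADPH oxidase subunit, had 61.1 FPKM in females and 105 FPKM in SryHi males, against 59.1 FPKM in wildtype males.

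Surface and signalling genes of neutrophils lay on both sides of 0. Ly6g, the surface antigen that defines mouse neutrophils, had 0.284 FPKM in females and was listed at 0 in SryHi males, against 0.777 FPKM in wildtype males, under the filter in each comparison. Csf3r, the receptor for granulocyte colony-stimulating factor, had 5.46 FPKM in females and 8.15 FPKM in SryHi males, against 12.9 FPKM in wildtype males. Cxcr2, the receptor for neutrophil-attracting chemokines, had 6.06 FPKM in females and 8.02 FPKM in SryHi males, against 11.4 FPKM in wildtype males. Both were lowest in females and highest in wildtype males. Of 18 genes that passed in females 2 were at least 2-fold lower and 1 higher, with a median of -0.30. The higher gene was Fpr2, which is also counted among the receptors below. Of 16 in SryHi males 1 was lower and 1 higher, with a median of 0.44. The lower gene was Clec4d, with 0.877 FPKM in SryHi males against 3.58 FPKM in wildtype males, and it passed there only through wildtype males. On the TPM scale the medians were -0.14 in females and 0.16 in SryHi males relative to all genes. Il1b, an inflammatory cytokine, had 3.05 FPKM in females and 9.82 FPKM in SryHi males, against 10.1 FPKM in wildtype males. Fcgr4, an Fc receptor of neutrophils and monocytes, had 2.22 FPKM in females and 32.5 FPKM in SryHi males, against 4.80 FPKM in wildtype males.

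Among the stefins and other neutrophil transcripts, Wfdc21 was listed at 0 in females and in SryHi males, against 7.98 FPKM in wildtype males, and no fold is given. Wfdc17 had 16.1 FPKM in females and 35.5 FPKM in SryHi males, against 49.6 FPKM in wildtype males. Lrg1, a secreted glycoprotein of granulocytes and endothelium, had 20.3 FPKM in females and 22.4 FPKM in SryHi males, against 39.3 FPKM in wildtype males. Of 14 genes found 10 passed in females, with 3 at least 2-fold lower and none higher, and 8 passed in SryHi males, with 3 lower and none higher. Stfa2, Asprv1 and Wfdc21 in females, and Asprv1 and Wfdc21 in SryHi males, passed only through wildtype males, which holds for 1 of the 3 called lower in females and 2 of the 3 in SryHi males. Their medians were -0.87 in females and -0.63 in SryHi males, or -0.43 in females and -0.53 in SryHi males relative to all genes on the TPM scale. The stefin genes are near-identical copies among which reads can be split, so that their values are uncertain.

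**Figure D3:**
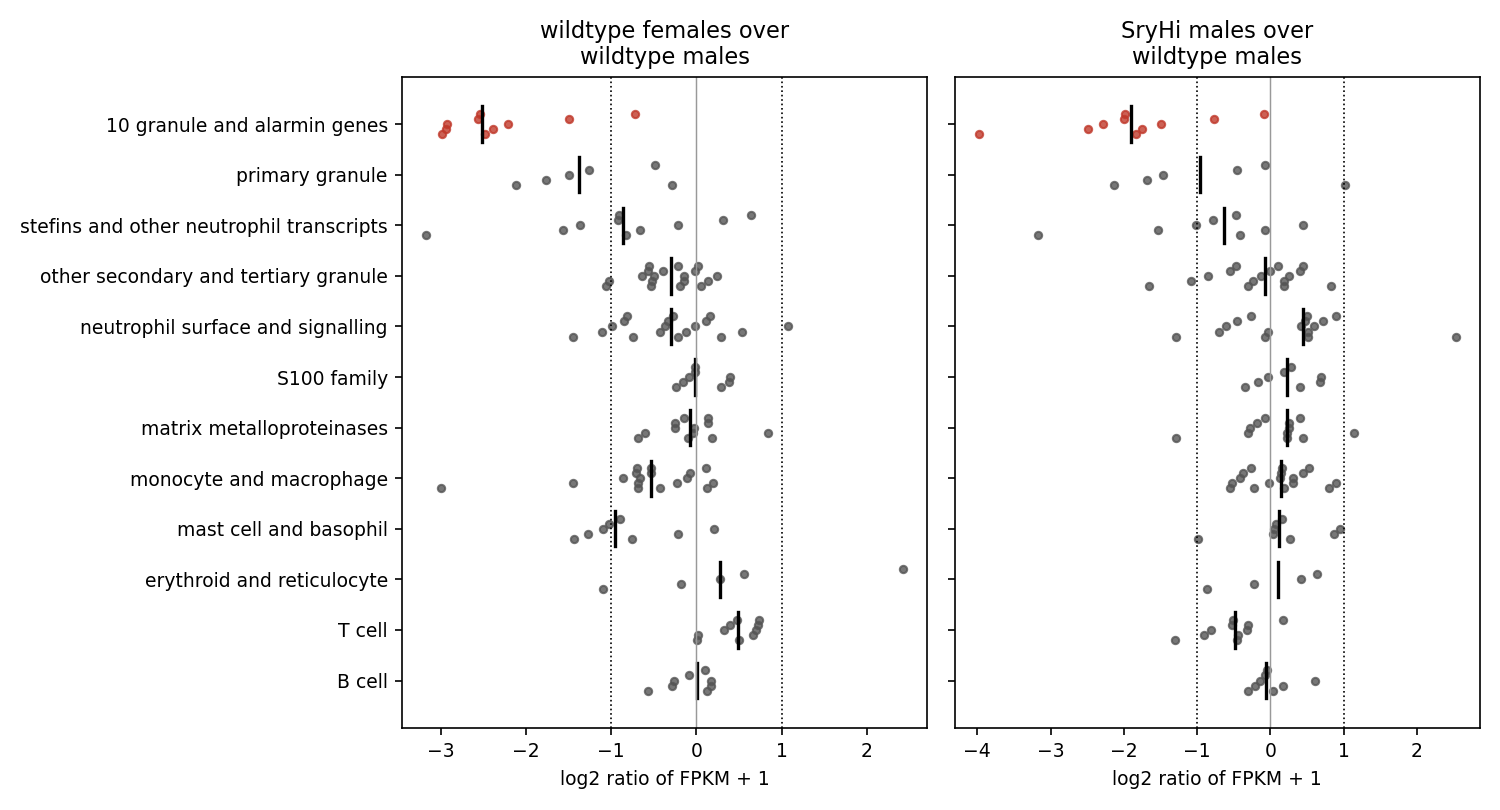
Log2 ratio of FPKM + 1 for the genes of each list that passed the filter, for wildtype females over wildtype males (left) and SryHi males over wildtype males (right), with 1 point per gene, a black bar at each list's median and dotted lines at 2-fold. The 10 granule and alarmin genes, chosen for these values, have medians of -2.51 in females and -1.90 in SryHi males. The primary granule genes have -1.38 in females, where 4 of the 6 drawn passed only through wildtype males, and -0.96 in SryHi males. The B cell genes have 0.00 in females and -0.06 in SryHi males. On the TPM scale every list median drawn for SryHi males other than that of the 10 genes lies above 0, with the median of all genes at 1.28.

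The factors that direct granulocyte maturation were measured at low or moderate levels. Cebpe, which is needed for secondary granule genes, had 0.537 FPKM in females and 0.118 FPKM in SryHi males, against 0.656 FPKM in wildtype males, under the filter. Gfi1, a repressor needed for neutrophil development, had 1.27 FPKM in females and 0.813 FPKM in SryHi males, against 3.32 FPKM in wildtype males. Cebpb, which drives emergency granulopoiesis and is also a macrophage factor, had 2.65 FPKM in females and 4.54 FPKM in SryHi males, against 10.9 FPKM in wildtype males. Spi1, which encodes PU.1 and is shared with B cells and macrophages, had 26.9 FPKM in females and 47.0 FPKM in SryHi males, against 30.9 FPKM in wildtype males. Csf3, granulocyte colony-stimulating factor, was listed at 0 in all 3 libraries. In each comparison 2 of 11 genes that passed were at least 2-fold lower and none was higher, with medians of -0.48 in females and -0.29 in SryHi males, or -0.35 in females and -0.47 in SryHi males relative to all genes on the TPM scale. In females the 2 were Cebpb and Csf3r, which is also counted among the surface genes. In SryHi males they were Cebpb and Gfi1, and Gfi1 passed there only through its value in wildtype males.

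Of 12 genes for chemokines and attractants of neutrophils and their receptors, 6 passed in females, with 2 at least 2-fold lower, Cxcl1 and Ccl3, both of which passed only through wildtype males, none higher and a median of -0.56. In SryHi males 7 passed, with none lower, 1 higher and a median of 0.10; relative to all genes on the TPM scale the medians were -0.47 in females and -0.54 in SryHi males. Cxcl1, a ligand of Cxcr2, had 0.678 FPKM in females and 3.61 FPKM in SryHi males, against 8.12 FPKM in wildtype males. Ccl4, the gene called higher in SryHi males, had 0.412 FPKM in females and 5.64 FPKM in SryHi males, against 0.777 FPKM in wildtype males, and passed only through SryHi males. Cxcl12, the ligand of Cxcr4 that retains neutrophils in marrow, had 265 FPKM in females and 403 FPKM in SryHi males, against 335 FPKM in wildtype males. Of the receptors for alarmins and granule proteins, Tlr4, a receptor for S100a8 and S100a9, had 11.9 FPKM in females and 20.8 FPKM in SryHi males, against 14.4 FPKM in wildtype males. Ager, another receptor of S100 proteins, had 2.01 FPKM in females and 3.41 FPKM in SryHi males, against 3.76 FPKM in wildtype males. Among 14 receptor genes that passed in each comparison none was at least 2-fold lower, and 1 was higher in females, Fpr2 at 7.41 FPKM, with 4.65 FPKM in SryHi males, against 2.98 FPKM in wildtype males.

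Other genes listed as S100, metalloproteinase or protease inhibitor genes were mostly within 2-fold. Retn and Retnla, relatives of Retnlg given above, were more than 2-fold higher in females. Of 7 other S100 genes and S100pbp, which encodes an S100-binding protein, that passed, none was past 2-fold in either comparison, with medians of -0.01 in females and 0.23 in SryHi males, or -0.09 in females and 0.52 in SryHi males relative to all genes on the TPM scale. S100a4, which lymphocytes and macrophages express, had 101 FPKM in females and 93.2 FPKM in SryHi males, against 76.6 FPKM in wildtype males. S100a6 had 41.2 FPKM in females and 52.6 FPKM in SryHi males, against 46.3 FPKM in wildtype males. Of 12 other metalloproteinase genes that passed, some of them Adam genes, none was past 2-fold in females. In SryHi males Mmp3 at -1.29 was lower and Mmp12 at 1.14 higher. The medians of these genes were -0.07 in females and 0.23 in SryHi males, or 0.01 in females and -0.03 in SryHi males relative to all genes on the TPM scale. Of 10 other genes on the protease inhibitor list that passed, all serpins, cystatins or Timp genes, none was past 2-fold in either comparison. Their medians were -0.06 in females and 0.08 in SryHi males, or -0.07 in females and 0.21 in SryHi males relative to all genes on the TPM scale. No Wfdc gene of that list passed. Wfdc21 and Wfdc17, given above, were counted in another list, with Wfdc17 at -1.57 in females and -0.47 in SryHi males.

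Chromosomal neighbours of the genes were mostly within 2-fold. Camp, Ngp and Ltf lie within 1.2 Mb of chromosome 9, at chr9:109847379-111042767, with 28 other protein-coding genes. Of these, 15 passed in females with none past 2-fold, a median of 0.02 and a range of -0.35 to 0.79. In SryHi males 14 passed, with a median of -0.11, and Als2cl alone was past 2-fold at -1.58. S100a8 and S100a9 end a cluster at chr3:90511034-90695721 with 11 other protein-coding genes, of which 5 passed in each comparison with none past 2-fold and medians of 0.29 in females and 0.28 in SryHi males. Around Slpi, within a window of 1.04 Mb, 18 neighbours passed in females with none past 2-fold and a median of -0.16. In SryHi males 17 passed, 1 was lower and 1 higher, and the median was -0.10.

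**Figure D4:**
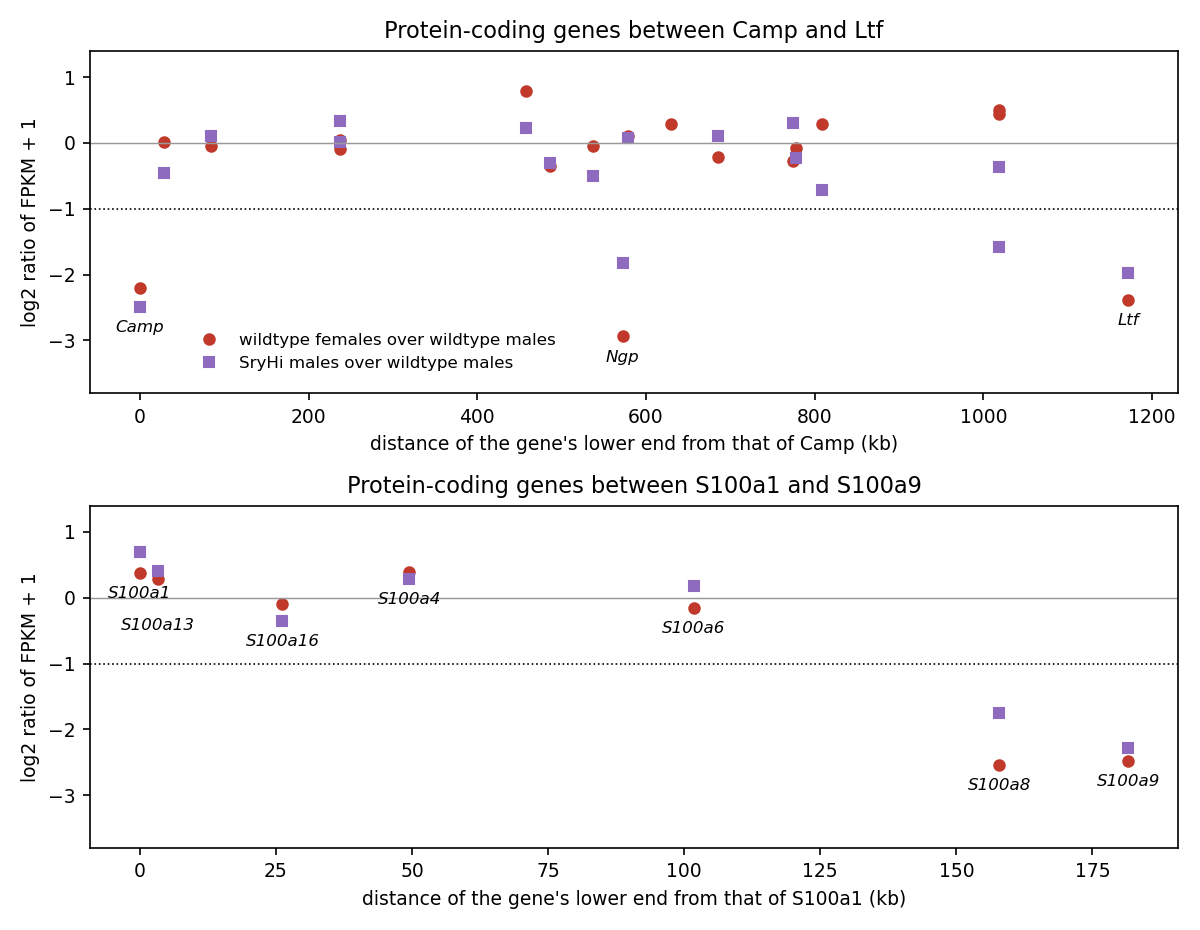
Log2 ratio of FPKM + 1 against distance in kb for protein-coding genes that passed the filter, from Camp to Ltf (top) and from S100a1 to S100a9 (bottom), with circles for wildtype females over wildtype males, squares for SryHi males over wildtype males and a dotted line at 2-fold lower. Camp, Ngp, Ltf, S100a8 and S100a9 lie at or below -1.75 in both comparisons while their neighbours, other than Als2cl at -1.58 in SryHi males, lie above -1; on the TPM scale the 5 genes lie between -0.94 and -0.10 in SryHi males.

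Genes with a pattern most like the 10 were ranked over the 3 libraries by the distance of their 2 ratios from the medians of the set, among 9188 protein-coding genes whose mean over the libraries reached 5 FPKM. Genes under that mean were not ranked, among them Prtn3 and Mpo. Prtn3 had ratios of -2.12 in females and -1.68 in SryHi males, and Mpo had -1.76 and -1.47. Ltf, Mmp8 and Mmp9 of the set itself were also under it. The nearest of the genes ranked was Ccl7, a monocyte-attracting chemokine, at a distance of 0.42, with 1.76 FPKM in females and 2.45 FPKM in SryHi males, against 10.8 FPKM in wildtype males. Next came Hmox1, heme oxygenase 1, at 0.53, with 17.3 FPKM in females and 21.5 FPKM in SryHi males, against 72.6 FPKM in wildtype males, and E2f3, a cell cycle factor, at 0.66, with 3.23 FPKM in females and 4.24 FPKM in SryHi males, against 15.0 FPKM in wildtype males. Cebpb, Hsph1, Ccl8, Slc40a1, Tgtp1, Cyr61 and Ccdc85b followed, at distances of 1.13 to 1.43. Of the set itself, Retnlg at 0.11, Ltf at 0.14 and S100a8 at 0.16 lay closest to its medians, and Slpi at 2.12 and Mmp9 at 2.54 lay farthest.

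Markers of other cells differed between the libraries too. The 18 monocyte and macrophage genes summed to 481 FPKM in females and 845 FPKM in SryHi males, against 762 FPKM in wildtype males, with none listed at 0, a median ratio of -0.53 in females and 0.14 in SryHi males, and 2 of 17 that passed at least 2-fold lower in females. The 10 mast cell and basophil genes summed to 109 FPKM in females and 298 FPKM in SryHi males, against 239 FPKM in wildtype males, with Mcpt1 listed at 0 in all libraries. At the deposited scale both lists had lower sums in females, and higher sums in SryHi males, than in wildtype males. The mast cell genes had a median ratio of -0.96 in females and 0.12 in SryHi males, with 4 of 8 that passed at least 2-fold lower in females, Mcpt2 only through wildtype males, and none past 2-fold in SryHi males. Relative to all genes on the TPM scale, the monocyte and macrophage median was -0.58 in females and 0.24 in SryHi males, and the mast cell median was -0.62 in females and 0.39 in SryHi males. The 11 erythroid genes found summed to 63.4 FPKM in females and 47.6 FPKM in SryHi males, against 69.4 FPKM in wildtype males, with Epb42 and Klf1 listed at 0 in all 3. The 9 platelet genes summed to 12.2 FPKM in females and 12.5 FPKM in SryHi males, against 21.1 FPKM in wildtype males, and the 8 eosinophil genes to 23.8 FPKM in females and 22.5 FPKM in SryHi males, against 21.2 FPKM in wildtype males. The 13 keratinocyte and squamous epithelium genes summed to 5.90 FPKM in females and 4.30 FPKM in SryHi males, against 3.51 FPKM in wildtype males, with Krt1, Ivl, Lor, Flg and Sprr1a listed at 0 in all libraries. Of that list Krt10 had 1.33 FPKM in females and 2.50 FPKM in SryHi males, against 0.613 FPKM in wildtype males, and was at least 2-fold higher in SryHi males, where it passed only through SryHi males. The 7 skeletal muscle genes summed to 24.0 FPKM in females and 7.82 FPKM in SryHi males, against 12.3 FPKM in wildtype males. T cell genes, 10 in number, summed to 718 FPKM in females and 349 FPKM in SryHi males, against 513 FPKM in wildtype males, and 8 B cell genes to 2220 FPKM in females and 2640 FPKM in SryHi males, against 2640 FPKM in wildtype males. The part of these cells in the values of the 10 genes was not tested.

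Genes that handle iron stand beside Ltf and Lcn2, which bind iron or its carriers. Of 9 that passed besides Ltf and Lcn2, 3 were at least 2-fold lower in each comparison and none was higher, with medians of -0.52 in females and -0.37 in SryHi males, or -0.45 in females and -0.48 in SryHi males relative to all genes on the TPM scale. These were Hmox1 and Hp, given above, of which Hp is also counted among the granule genes, and Slc40a1, the iron exporter ferroportin, with 10.5 FPKM in females and 14.9 FPKM in SryHi males, against 31.7 FPKM in wildtype males.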

How the data were processed

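Total RNA of popliteal lymphnodes was depleted of ribosomal RNA, made into stranded libraries and sequenced with 2 mates of 50 bases. The authors used HiSat2, Samtools, Cufflinks and Cuffdiff on the mm10 build, with versions not given in the sources used here, and deposited a pair of tables, each of 48808 entries, with the FPKM of each library, fragments normalized by transcript length and mapped fragments. The tables also hold the authors' log2 fold change, test statistic, p-value, q-value and call, which were not used. Per table, 2 lines without values were left out. The wildtype male FPKM was equal in both tables for 48566 of 48568 symbols.

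Entries of 1 symbol were summed, which concerned 231 symbols and none of the 10 genes. Ratios to wildtype males were formed on the scale log2(FPKM + 1) for genes whose pair mean reached 1 FPKM, and a 2-fold difference was the limit of a call. With 1 pool per group no test was run and no p-value was computed. Depth was approximated by the smallest common step of FPKM times length in single-transcript genes of 3000 to 8000 nt. Gene types, exons and transcript lengths came from GENCODE M21 on GRCm38, which held 98.4% of the gene IDs, and start regions from RefSeq on GRCm38.p6. The steps ran in Python 3.11.15 with pandas 2.3.3, numpy 2.4.6 and matplotlib 3.10.9. Only the 2-fold call was tried on simulated counts, with counting noise and no variation between pools. The other steps were not tested in this way.

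The 10 genes, the gene lists and the patterns were chosen with earlier results of these data known. From each other list, the 2 genes with the largest ratio and the 2 with the highest FPKM were to be named, with the 10 genes most like the set by Euclidean distance. Not every gene so named is reported here. Named outside that rule, after their values were seen, were Mpo, Ctsg, Ly6g, Csf3r, Cxcr2, Clec4d, Cebpe, Csf3, Tlr4, Ager, S100a6, Retnlb, Als2cl, Ccl3, Stfa2, Asprv1, Mcpt2, S100pbp, Sry, Ddx3y, Ighj1, Ighj4 and the markers listed at 0. Alternatives were pseudocounts of 0.1 and 5, no filter or a pair mean of 5 FPKM, TPM over all entries, centring on the median of all genes, scaling by the upper quartile, the highest entry of a symbol in place of the sum, entries of any status and, added later, scaling to the wildtype male FPKM sum.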

Additional observations from a re-analysis of the deposited data

How the results depend on the processing

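No paired analysis was possible because each group is 1 pooled library, and for the same reason no replicate could be left out. Of the log2 ratios of single genes under the alternatives, 172 moved by less than their approximate counting error at the estimated depth and 22 by more. No entry was left out by status, none of the 10 genes has several entries, and all passed the filter. The settings on status, highest entry and filter therefore could not move a ratio, and their ratios count among the 172. Centring shifted all ratios alike, by 0.01 in females and 0.04 in SryHi males. The 172 are thus no measure of stability. Another 2 ratios, of a gene called lower, changed sign. The ratio of Lcn2 in SryHi males was 0.01 after rescaling to TPM and 0.01 after rescaling to the wildtype male FPKM sum, a setting added after the data were seen. On the TPM scale 1 of the 10 genes was at least 2-fold lower in SryHi males, with a median of -0.35, while the median of all genes was 1.28. On the wildtype male sum 2 genes were at least 2-fold lower in SryHi males, with a median of -0.42 beside 1.58 over all genes. A pseudocount of 5 FPKM gave a median of -1.73 in females. With a pseudocount of 0.1 FPKM, 9 of the 10 genes were at least 2-fold lower in SryHi males, Mmp8 among them at -1.1. Females set over SryHi males at the deposited scale, a comparison added after the data were seen, gave 2 genes at least 2-fold lower and a median of -0.60 over all 10 genes. Several values rest on few fragments, so their ratios are the least certain. These include about 6 for Lcn2 and Mmp8, 8 for Retnlg and 9 for Camp in females, and 6 for Camp in SryHi males. With 1 pool per group, differences between groups and between pools cannot be told apart.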
